A study of Bos taurus with 12 samples.

Results

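The 10 genes of the core circadian clock described here are BMAL1 (listed in older annotations as ARNTL), CLOCK, PER1, PER2, PER3, CRY1, CRY2, NR1D1, NR1D2 and DBP. They were taken by symbol and matched through a bovine RefSeq gene table to the Entrez gene IDs of the count files. All 10 were found among 30336 gene IDs, and all 10 were among the 13212 genes with enough reads to be tested, of 21227 genes with any read. The rule itself used no measured value, but the genes were chosen with earlier results of these data known.

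Expression was measured by RNA sequencing in liver of 12 Holstein heifer calves at 4 d of age. By the labels each library came from another animal, sampled by puncture biopsy. The 6 CON calves were born to cows on a basal close-up diet without added methionine, and the 6 MET calves to cows that received the same diet with ethyl cellulose rumen-protected methionine during the last 28 d of gestation. Calves of both groups were managed alike after birth and received milk replacer in the morning and afternoon, and the supplement was given to the dam alone. The time of day of each biopsy is not given in the sources used here, and its part in the results was not tested.

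The circadian clock of vertebrate cells is a transcriptional loop. BMAL1 and CLOCK bind as a pair to E-box sequences and activate the PER and CRY genes, whose proteins return to the nucleus and repress that pair, and a second loop runs through the nuclear receptors NR1D1 and NR1D2 (REV-ERB alpha and beta), which repress BMAL1. DBP is an E-box target that carries the rhythm to D-box genes. In the liver of adult mammals these genes cycle over the day, BMAL1 roughly opposite in phase to DBP, and feeding time and glucocorticoids help to set the liver clock.

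Each library held 8277789 to 10397604 reads assigned to genes. All were sequenced on 1 lane, and the first index was not the same in both diets, which makes its effect inseparable from that of diet. CON 1 and CON 4 were nearly the same library, with a chi-square per gene of 1.33 (pure counting noise gives about 1), and MET 1 and MET 3 likewise, with 1.24. The labels give these 4 libraries to 4 different animals. MET 5 and MET 4 stood apart from the rest: MET 5 had a chi-square per gene of 70.2 to 133 with the 10 libraries other than MET 4, and MET 4 one of 48.3 to 82.1 with those other than MET 5, while the value between them was 52 and the 43 remaining pairs lay between 25.1 and 54.8. Each near-identical pair was therefore counted as 1 sample, named here CON 1/4 and MET 1/3, and fold changes are from the 10 samples or, where so stated, from the 12 libraries. The mean ± SD of a diet has n = 5. Levels are reads per gene relative to the library total (CPM) after TMM scaling, and FDR denotes the adjusted p of the edgeR quasi-likelihood test over all genes tested, with 0.10 as the threshold.

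Hepatocyte markers (ALB, APOA1, TTR, SERPINA1, FGB and TF) were highly expressed in every sample, in keeping with the tissue label. Their summed level was 132550 to 179223 CPM in CON and 108795 to 142250 CPM in MET, with an exact two-sided permutation p of 0.0397 (0.278 after adjustment over 7 marker lists). For the lists of Kupffer, endothelial, stellate, cholangiocyte, erythroid and lymphocyte markers, exact p was between 0.0794 and 0.857. In edgeR 0 markers of any list were called over the 12 libraries, beside 4.41% of all genes, and 0% of all genes were called over the 10 samples. Before adjustment, 1 hepatocyte and 1 Kupffer marker had p at most 0.05 over the 10 samples, beside 16.3% of all genes. In bulk tissue, fewer cells of a type and less RNA per cell cannot be told apart, and the part of cell composition in the results below was not tested.

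All 10 clock genes were detected in every calf, at levels that differed widely between genes. In CPM per kilobase of exon, the scale used to compare levels between genes, DBP had the highest mean level over the 10 samples with 14.5 ± 7.71 (SD, n = 10), followed by PER1 with 8.16 ± 2.89, CRY2 with 6.12 ± 2.04 and NR1D2 with 4.62 ± 0.963. Then came NR1D1 (2.67 ± 1.13), BMAL1 (2.19 ± 0.736), CLOCK (1.94 ± 0.133), PER3 (1.76 ± 0.706), CRY1 (1.64 ± 0.386) and PER2 (0.938 ± 0.521). Neighbours at the top of this order kept it in most samples, with DBP above PER1 in 8 of 10 and NR1D2 above NR1D1 in 9 of 10. In the middle they did not, since NR1D1 was above BMAL1 in 5 of 10 samples, and BMAL1 above CLOCK, CLOCK above PER3 and PER3 above CRY1 in 6 of 10 each. PER2 rests on the fewest reads, 6 to 46 per library, and its gene model in the files spans 2257 bases of exon.

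The genes also differed in how much they varied between calves. CLOCK, the activator whose mRNA is weakly rhythmic in many tissues, had a coefficient of variation of 6.84% over the 10 samples, about the 6.79% that counting error alone would give. DBP varied by 53.0% against a counting error of 5.83%, PER2 by 55.6% against 24.3%, and NR1D1 by 42.5% against 13.2%. PER3 (40.1%), PER1 (35.4%), BMAL1 (33.6%), CRY2 (33.4%), CRY1 (23.5%) and NR1D2 (20.9%) lay between. The median over all genes tested was 21.6%, so that 8 of the 10 clock genes were above it and CLOCK and NR1D2 below. From the lowest to the highest sample PER2 spanned 6.44-fold, DBP 4.8-fold and NR1D1 4.39-fold, while CLOCK spanned 1.2-fold.

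**Figure D1:**
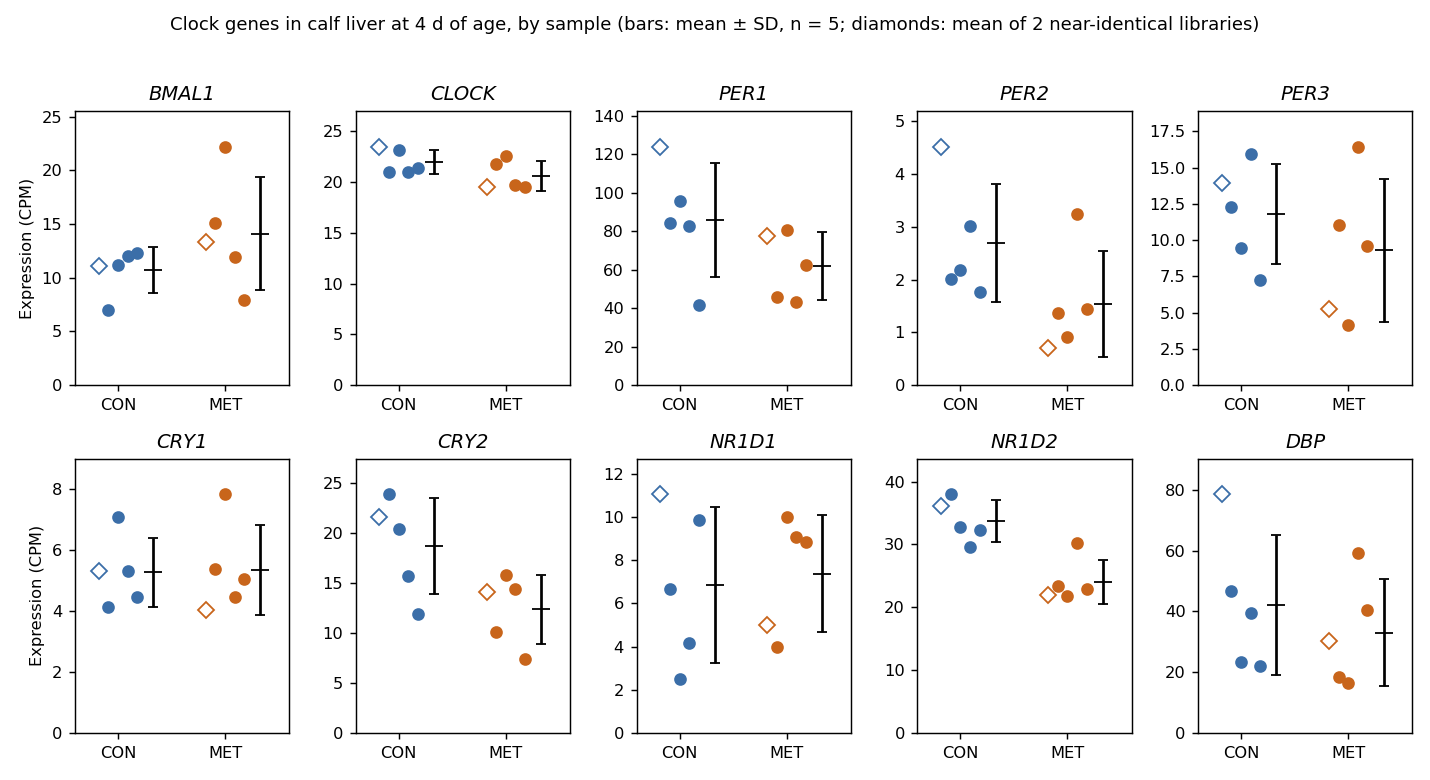
Level of each clock gene (CPM, vertical axis from 0) in the CON and MET samples, 1 point per sample. Diamonds are means of a near-identical library pair and black bars the mean ± SD of 5 samples. The 5 CON samples of NR1D2 sit between 29.6 and 38.0 CPM and 4 of 5 MET samples between 21.8 and 23.4 CPM, and the diets overlap in every panel.

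Between the diets, NR1D2 was the clock gene that passed the threshold. Its log2 fold change, MET against CON, was −0.53 ± 0.10 (SE) with an FDR of 0.0452 for the 12 libraries, and −0.49 ± 0.12 with an FDR of 0.174 for the 10 samples. Of the 10 clock genes, 1 was thus called in edgeR over the 12 libraries, where 4.41% of all genes tested were called, and 0 over the 10 samples, where 0% were. By sign alone, 9 of the 10 had a lower fitted level in MET over the 12 libraries and 7 over the 10 samples, against 50.4% and 50.5% of all genes. The median log2 fold change of the 10 genes was −0.50 over the 12 libraries and −0.36 over the 10 samples, against −0.003 over all genes tested. With MET 4 and MET 5 both left out, a comparison chosen after the data had been seen, NR1D2 was again the 1 clock gene called in edgeR over the remaining libraries, where 1.14% of all genes were called, with a log2 fold change of −0.60 and an FDR of 0.0587. Over the 8 samples left without them, 0 clock genes and 0% of all genes were called in edgeR (3 clock genes had p at most 0.05 before adjustment, all lower in MET, beside 13% of all genes in either direction and 6.88% on the lower side), NR1D2 was at −0.57 (FDR 0.323), and 9 of the 10 clock genes had a lower fitted level in MET, against 50.6% of all genes.

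In 0 of the 10 did the 5 CON and 5 MET samples fail to overlap, beside 3.71% of all genes (1.77% with MET below CON and 1.94% with MET above).

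Before adjustment, edgeR's p over the 10 samples was 0.05 or less for CRY2 and NR1D2, so for 2 of the 10 clock genes on the lower side and 0 on the higher, beside 8.52% and 7.83% of all genes. DESeq2 over the 10 samples called NR1D2 (adjusted p = 0.0239), where it called 5.71% of all genes and gave PER2 no adjusted p, and over the 12 libraries it also called CRY2 and PER2, where it called 10.4% of all genes. The diet contrast moved with gene length over all genes, from a median log2 fold change of 0.15 in the 2643 shortest genes (67 to 1533 bases of exon) to −0.14 in the 2642 longest (5023 to 30785 bases), and 5 of the 10 clock genes belong to the longest set. With that trend removed, the median of the clock genes was −0.36 over the 12 libraries and −0.27 over the 10 samples, against 0.019 and 0.024 over all genes.

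**Figure D2:**
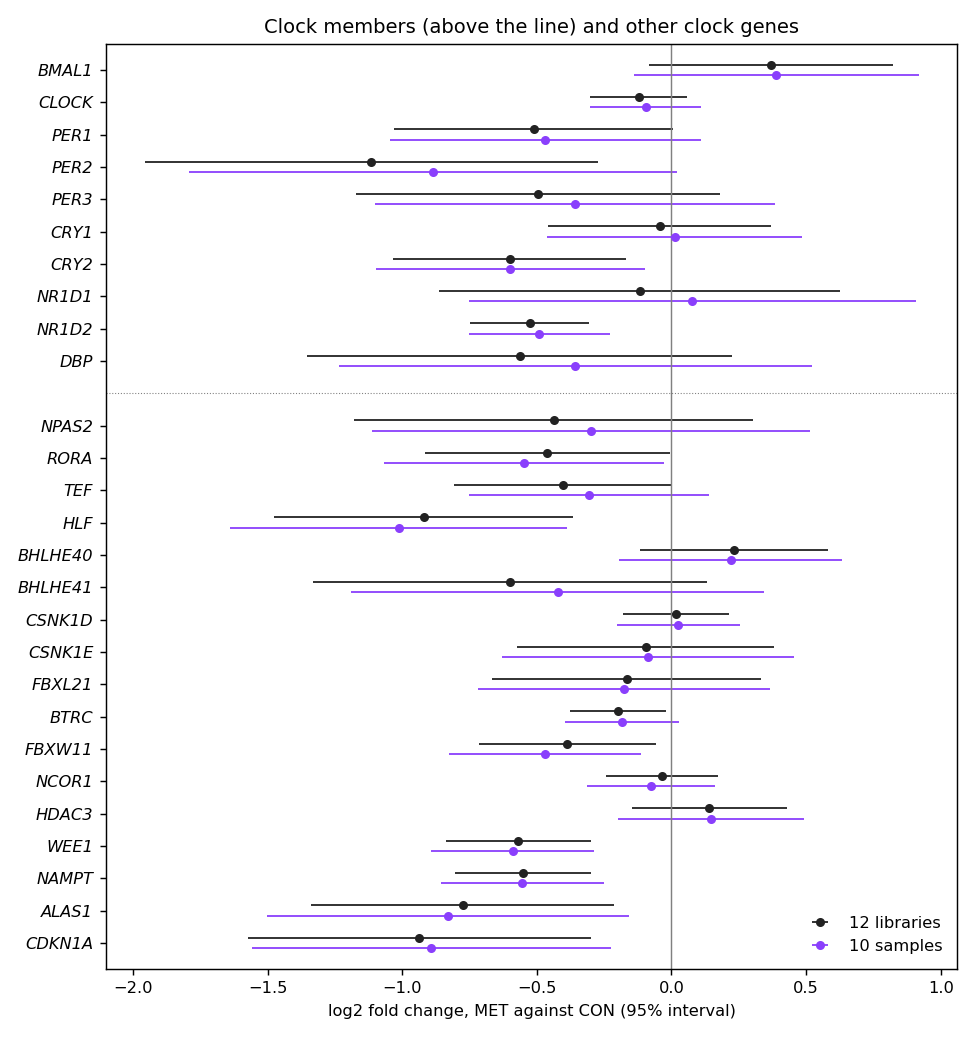
Log2 fold change of MET against CON with its 95% interval (horizontal axis) for the 10 clock genes and the further genes of the clock pathway named in the text, from 12 libraries in black and 10 samples in purple. Most points lie left of 0, and among the 10 clock genes the intervals of CRY2 and NR1D2 over the 10 samples exclude 0.

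Neither activator passed the threshold in either fit. BMAL1 (Entrez 530705, chr15:39840791-39948770, minus strand, UMD 3.1.1 as are all positions here) measured 11.1, 7.04, 11.2, 11.99 and 12.3 CPM in CON 1/4, 2, 3, 5 and 6. In MET 1/3, 2, 4, 5 and 6 it measured 13.3, 15.1, 22.2, 11.97 and 7.94 CPM. MET 4 stood highest and CON 2 lowest, and the diets overlapped, with 4 of 5 MET samples above the CON median. The means were 10.7 ± 2.13 and 14.1 ± 5.24 CPM (SD, n = 5), and the log2 fold change over the 10 samples was 0.39 with a 95% interval of −0.14 to 0.92 (exact two-sided permutation p = 0.278, edgeR FDR 0.445). BMAL1 was the single clock gene with a higher fitted level in MET in both fits. Its value rested in part on MET 4, since over the libraries it was 0.37 with all 12 and 0.19 without MET 4 (FDR 0.599 in edgeR), and with MET 4 and MET 5 both left out it was 0.20 over the libraries and 0.18 over the samples.

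CLOCK (Entrez 100300400, chr6:72566778-72678028, minus strand), which encodes the partner of BMAL1, had 21.0 to 23.5 CPM in CON and 19.5 to 22.6 CPM in MET. Its log2 fold change was −0.10 over the 10 samples with a 95% interval of −0.30 to 0.11 (exact permutation p = 0.135), the narrowest interval of the 10 genes, and −0.12 over the 12 libraries (edgeR FDR 0.437). With the gene length trend removed its sign turned, to 0.05 over the 12 libraries. Its exon model of 10955 bases is the longest among the 10 genes.

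The 3 period genes, which encode the repressors that give the loop its delay, had lower mean levels in MET, and none passed the threshold in edgeR. PER1 (Entrez 516318, chr19:28389967-28405273, minus strand), which glucocorticoids can induce directly, measured 124, 84.3, 96.0, 83.0 and 41.6 CPM in CON 1/4, 2, 3, 5 and 6. In MET 1/3, 2, 4, 5 and 6 it measured 77.8, 45.9, 80.9, 43.2 and 62.3 CPM. All 5 MET samples were below the CON median, but CON 6 was the lowest sample of all. The log2 fold change was −0.47 over the 10 samples with a 95% interval of −1.05 to 0.11 (exact permutation p = 0.19, edgeR FDR 0.403), and −0.51 over the 12 libraries (edgeR FDR 0.25). With the gene length trend removed, these values were −0.29 and −0.34.

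PER2 (Entrez 512237, chr3:118191441-118206601, minus strand) had the largest fitted difference of the 10 genes. It measured 4.52, 2.01, 2.17, 3.02 and 1.76 CPM in CON 1/4, 2, 3, 5 and 6, and 0.701, 1.37, 0.921, 3.24 and 1.44 CPM in MET 1/3, 2, 4, 5 and 6. All MET samples but MET 5 were below every CON sample, and MET 5 was above all CON samples but CON 1/4. The log2 fold change was −1.11 ± 0.39 (SE) over the 12 libraries with an FDR of 0.141 in edgeR, and −0.89 ± 0.42 in the 10 samples with an FDR of 0.316 and an exact permutation p of 0.0873. Without MET 5 the 12-library value was −1.54 with an FDR of 0.0792, and without both MET 4 and MET 5 it was −1.51 with an FDR of 0.113.

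PER3 (Entrez 614154, chr16:46382114-46450495, minus strand) ran from 7.26 to 15.9 CPM in CON and from 4.14 to 16.4 CPM in MET. Its highest sample was MET 5 and its lowest MET 4, so that the MET calves spanned the CON calves on both sides. The log2 fold change was −0.36 over the 10 samples with a 95% interval of −1.10 to 0.38 (exact permutation p = 0.294), and −0.50 over the 12 libraries (edgeR FDR 0.392). Without MET 5 the 12-library value was −0.78 (FDR 0.166), and without both MET 4 and MET 5 it was −0.65 (FDR 0.244).

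The cryptochromes, which repress BMAL1 and CLOCK together with the PER proteins, differed from each other in their values. CRY2 (Entrez 509058, chr15:76753585-76790778, plus strand) measured 21.6, 23.9, 20.5, 15.7 and 11.9 CPM in CON 1/4, 2, 3, 5 and 6. In MET 1/3, 2, 4, 5 and 6 it measured 14.1, 10.2, 15.8, 14.4 and 7.42 CPM. All 5 MET samples were below the CON median, and CON 5 and CON 6 overlapped with them. The means were 18.7 ± 4.83 and 12.4 ± 3.47 CPM (SD, n = 5), and the log2 fold change was −0.60 in both fits, with an edgeR FDR of 0.127 for the 12 libraries and 0.241 for the 10 samples (exact permutation p = 0.0635). Without CON 6 the FDR over the remaining 11 libraries was 0.0935.

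CRY1 (Entrez 535947, chr5:70604520-70701030, minus strand) had 4.15 to 7.09 CPM in CON and 4.04 to 7.83 CPM in MET. The log2 fold change was 0.01 over the 10 samples with a 95% interval of −0.46 to 0.48 (exact permutation p = 0.944), and −0.04 over the 12 libraries. Without MET 4 and MET 5 these values were −0.14 and −0.19. The difference between CRY1 and CRY2 in their response to diet was not tested.

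The REV-ERB receptors bind haem and recruit the NCOR1 and HDAC3 corepressor to BMAL1 and to genes of lipid metabolism. NR1D2 (Entrez 532076, chr27:41863331-41884845, minus strand) measured 36.05, 38.0, 32.8, 29.6 and 32.3 CPM in CON 1/4, 2, 3, 5 and 6, a mean of 33.7 ± 3.29 (SD, n = 5). In MET 1/3, 2, 4, 5 and 6 it measured 21.9, 23.4, 21.8, 30.2 and 23.0 CPM, a mean of 24.1 ± 3.51. All MET samples but MET 5 were below every CON sample, and MET 5 lay just above CON 5 and below the other CON samples. These levels rest on 189 to 334 reads per library. Over the 10 samples the 95% interval of the log2 fold change was −0.75 to −0.23, the exact permutation p was 0.0159, where 0.00794 is the smallest that 5 against 5 samples allow, and the unadjusted edgeR p was 0.00155.

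The NR1D2 call over the 12 libraries depended on the near-identical CON libraries. With CON 1 left out its edgeR FDR was 0.104, and with CON 4 left out 0.103, while each of the other 10 omissions left it called, and the log2 fold change stayed between −0.61 and −0.49. Over all genes, the fits without CON 1 and without CON 4 called 26 of 13319 and 35 of 13320, against 583 of 13212 with all 12 libraries. With the gene length trend removed, the log2 fold change was −0.41 over the 12 libraries (FDR 0.0894 in edgeR) and −0.37 over the 10 samples.

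NR1D1 (Entrez 768225, chr19:41040925-41048606, minus strand), the paralog of NR1D2, showed no such separation. It measured 11.1, 6.66, 2.52, 4.17 and 9.86 CPM in CON 1/4, 2, 3, 5 and 6, and 5.01, 4.00, 10.0, 9.06 and 8.87 CPM in MET 1/3, 2, 4, 5 and 6. Samples of both diets were found at either end of the range. The log2 fold change was −0.12 over the 12 libraries and 0.08 over the 10 samples, with a 95% interval of −0.75 to 0.91 (exact permutation p = 0.675). Without MET 4 and MET 5 these values were −0.41 (edgeR FDR 0.608) and −0.23 (FDR 0.855), so that the sign over the samples turned. The difference between the paralogs in their response to diet was not tested. The exons of NR1D1 overlap those of THRA on the opposite strand, and the counting used strand.

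DBP (Entrez 503577, chr18:55722335-55729578, minus strand), a PAR bZIP transcription factor that drives D-box genes of hepatic metabolism, measured 78.5, 46.8, 23.4, 39.5 and 21.9 CPM in CON 1/4, 2, 3, 5 and 6. In MET 1/3, 2, 4, 5 and 6 it measured 30.3, 18.5, 16.3, 59.3 and 40.6 CPM. The 2 highest samples were CON 1/4 and MET 5 and the lowest were MET 4 and MET 2, so calves of each diet reached far into the range of the other. The log2 fold change was −0.36 over the 10 samples with a 95% interval of −1.24 to 0.52 (exact permutation p = 0.468, edgeR FDR 0.696), and −0.56 over the 12 libraries (FDR 0.406). The 12-library value was −0.37 without either of the near-identical libraries CON 1 and CON 4, and −0.69 (FDR 0.344) without MET 4 and MET 5.

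In a wider list of 30 clock genes, most fitted levels were lower in MET and few genes passed the threshold. This list was chosen with earlier results of these data known, so the shares of all genes beside its counts are no test. Of its 27 tested genes, 23 had a lower fitted level in MET and 4 a higher one in both fits, where 50.4% of all genes were lower over the 12 libraries and 50.5% over the 10 samples. In edgeR over the 12 libraries 3 of the 27 were called, all lower in MET, and 0 were higher, beside 2.32% and 2.09% of all genes. Over the 10 samples 0 were called, and 7 had p at most 0.05 before adjustment, all lower in MET, beside 8.52% of all genes on the lower side and 7.83% on the higher. The median log2 fold change was −0.36 over the 12 libraries and −0.27 over the 10 samples. BMAL2 and RORB had 0 reads in every library, which allows up to 0.277 to 0.377 CPM (3 reads, counting error only), and CIART had 0 to 8 reads and was not tested.

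The 3 called genes were HLF, a PAR bZIP factor like DBP, WEE1, a cell cycle kinase whose gene carries E-boxes, and NAMPT, the rate-limiting enzyme of NAD salvage. WEE1 measured 10.5, 11.4, 12.01, 8.96 and 9.23 CPM in CON 1/4, 2, 3, 5 and 6, and 7.64, 6.74, 7.48, 6.94 and 5.77 CPM in MET 1/3, 2, 4, 5 and 6. All MET samples were below all CON samples (exact permutation p = 0.00794), with a log2 fold change of −0.57 ± 0.13 (SE) and an FDR of 0.0582 for the 12 libraries in edgeR, and of −0.59 ± 0.14 with an FDR of 0.174 for the 10 samples. NAMPT was at 66.7 ± 9.76 CPM in CON and 45.4 ± 7.17 in MET (SD, n = 5), with 1 MET sample, MET 2, inside the CON range. Its log2 fold change was −0.55 in both fits, with an FDR in edgeR of 0.0552 for the 12 libraries and 0.174 for the 10 samples. HLF was at 3.95 ± 1.29 CPM in CON and 1.91 ± 0.512 in MET, with log2 fold changes of −0.92 (FDR 0.0869) for the 12 libraries and −1.01 (FDR 0.177) for the 10 samples, on 12 to 50 reads per library. Leaving out CON 1 or CON 4 ended the calls of all 3, in fits that called 26 and 35 genes in all. HLF was called without CON 5 but with none of the other 11 libraries left out. With MET 4 and MET 5 both left out, 0 genes of the list were called in either fit (6 had p at most 0.05 before adjustment in each, all lower in MET, beside 18.8% of all genes over the libraries and 13% over the 8 samples, or 9.78% and 6.88% on the lower side), and over the libraries WEE1 was at −0.59 (FDR 0.114), NAMPT at −0.48 (FDR 0.124) and HLF at −0.77 (FDR 0.192) in edgeR.

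By role, the fitted level over the 10 samples was lower in MET for 7 of 7 tested hepatic outputs of the clock, 4 of 4 ubiquitin ligase genes that act on CRY or PER proteins and 3 of 3 D-box factors besides DBP, where 50.5% of all genes were lower. Of the kinases 3 were lower and 1 higher, of the corepressors and partners 2 and 2, of the E-box repressors 1 and 1, and the remaining 3 genes of the list were lower. Among the outputs KLF10, named after its values were seen, lay at −0.011 (exact permutation p = 0.992), and its sign turned with the gene length trend removed (0.017 over the 10 samples) and in 5 of 12 fits with 1 library left out. ALAS1, which starts haem synthesis, was at 544 ± 228 CPM in CON and 306 ± 106 in MET (log2 fold change −0.83, FDR 0.232 over the 10 samples in edgeR, and −0.78 over the 12 libraries), and CDKN1A, a cell cycle inhibitor, at 43.8 ± 13.5 and 23.7 ± 10.7 CPM (−0.89, FDR 0.21, and −0.94 over the 12 libraries). RORA, which activates BMAL1 at the sites that REV-ERB represses, lay at 7.71 to 17.4 CPM in CON and 5.82 to 10.5 CPM in MET (−0.55, FDR 0.287, and −0.46 over the 12 libraries, which became −0.28 without CON 3), and FBXW11, a PER ubiquitin ligase subunit, at 33.2 ± 8.06 and 23.9 ± 2.66 CPM (−0.47, FDR 0.213, and −0.39 over the 12 libraries). None of these 4 passed the threshold in edgeR in either fit, although each had p at most 0.05 before adjustment over the 10 samples. DESeq2 over the 10 samples called WEE1, NAMPT and CDKN1A of this list, beside 5.71% of all genes, and gave no adjusted p for HLF, NPAS2, BHLHE41 and CSNK1E.

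For 9 other regulators the log2 fold changes over the 10 samples ran from −0.42 to 0.22. They were 0.02 for CSNK1D and −0.09 for CSNK1E, the casein kinases that phosphorylate PER proteins, and −0.08 for NCOR1 and 0.15 for HDAC3, the corepressor that REV-ERB recruits. Further values were −0.18 for FBXL21, a ligase subunit for CRY proteins, −0.31 for TEF, −0.30 for NPAS2, which can replace CLOCK, and 0.22 and −0.42 for the E-box repressors BHLHE40 and BHLHE41. Every one of these had an edgeR FDR above the threshold in both fits. Over the 12 libraries BHLHE41 was at −0.60, NPAS2 at −0.44 and TEF at −0.40, and without CON 4 BHLHE41 was at −0.31 and NPAS2 at −0.19. FBXL21 ran from −0.27 to −0.03 over the fits with 1 library left out. HDAC3 was at 0.03 over the 10 samples with the gene length trend removed. In 2 of the 27 genes, WEE1 and BTRC, the diets did not overlap, with MET below CON, beside 3.71% of all genes (1.77% with MET below); BTRC was named after its values were seen. BTRC, a PER ligase subunit, was at 18.8 ± 1.51 CPM in CON and 16.6 ± 0.543 in MET, with an FDR of 0.372 over the 10 samples in edgeR. Its log2 fold change was −0.18 over the 10 samples and −0.20 over the 12 libraries. With the gene length trend removed, these values were −0.05 and −0.07, on an exon model of 6852 bases.

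Among 9 genes that respond to cues of the liver clock (glucocorticoid, temperature and immediate early genes), 0 were called in edgeR in either fit, beside 4.41% of all genes over the 12 libraries and 0% over the 10 samples. Fitted levels were lower in MET for 8 and higher for 1, against 50.4% and 50.5% of all genes lower in the same fits. Before adjustment 1 of them, TSC22D3, had p at most 0.05 over the 10 samples, beside 16.3% of all genes, and DESeq2 called 0 there.

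Calves of the same diet also differed in their clock gene profiles. CON 1/4 had the highest level of 5 genes, CLOCK, PER1, PER2, NR1D1 and DBP. MET 4 had the highest BMAL1 and CRY1 and the lowest PER3, NR1D2 and DBP. MET 5 had the highest PER3, and in log2 units it was 0.75 above the mean of the 10 samples for PER2 and PER3 and 0.83 above it for DBP, on the side of CON 1/4. CON 3, MET 2 and CON 5 were low in NR1D1, by 1.30, 0.67 and 0.61, while CON 6, MET 5 and MET 2 were low in PER1, by 0.74, 0.69 and 0.60.

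**Figure D3:**
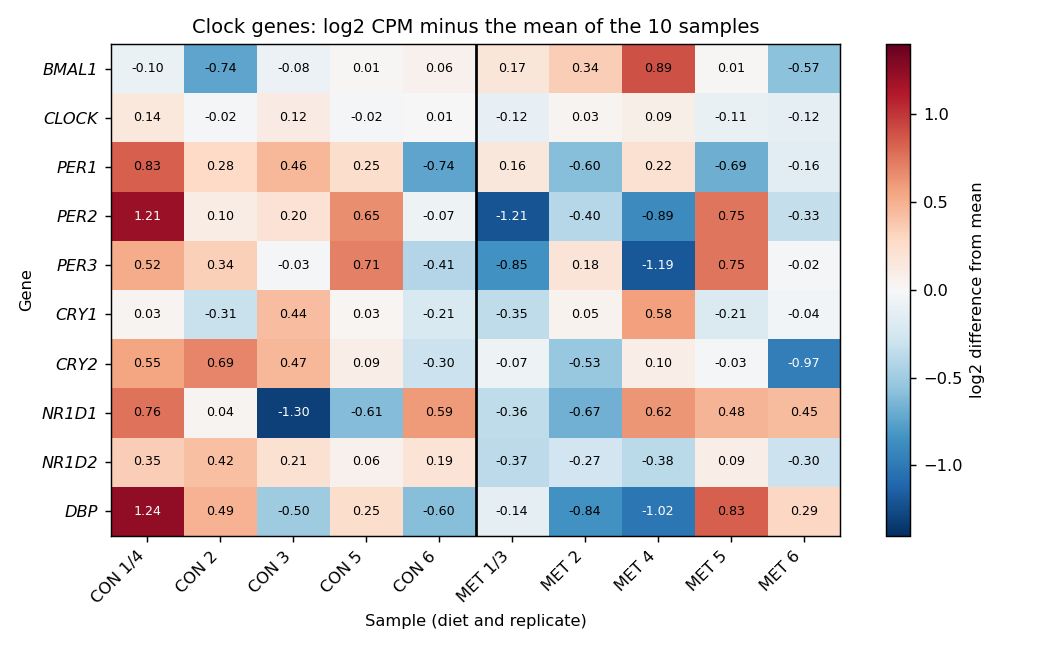
Log2 CPM of each clock gene (rows) in each of the 10 samples (columns, CON left of the line and MET right) minus the gene's mean over the samples, printed in each cell. PER2, PER3 and DBP run together in CON 1/4, MET 4 and MET 5, and NR1D2 is above its mean in all 5 CON samples and in MET 5.

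Across the 10 samples, 45 pairs of clock genes were compared by the correlation of log2 CPM, of which 27 were positive and 18 negative. PER2 and PER3 were correlated with r = 0.85 (permutation p = 0.00158, 0.0711 after Benjamini-Hochberg adjustment over the 45 pairs) and Spearman's rho = 0.81 (permutation p = 0.00692, adjusted 0.159). Without the 2 samples farthest from the median of PER2 r was 0.86, without the 2 farthest in PER3 it was 0.70, and on values centred within each diet it was 0.85. The pair was the only one past an adjusted p of 0.10 by r, and 0 pairs were by rho. It no longer passed with library size scaling alone or with the gene length trend removed, nor when CON 1/4, CON 3, CON 5, MET 1/3, MET 4 or MET 5 was left out, and without both MET 4 and MET 5 r was 0.82 over 8 samples, where 0 pairs passed.

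The other 5 pairs among PER2, PER3, NR1D2 and DBP were positive too, without passing the adjustment. PER2 and NR1D2 had r = 0.78 and rho = 0.73 (permutation p = 0.00871, adjusted 0.196, and 0.0199, adjusted 0.183). PER2 and DBP had r = 0.72 and rho = 0.71 (permutation p = 0.021, adjusted 0.227, and 0.0264, adjusted 0.198), and PER3 and DBP r = 0.70 and rho = 0.73 (permutation p = 0.0257, adjusted 0.227, and 0.0203, adjusted 0.183). Without the 2 samples farthest in the first gene of each pair r was 0.66, 0.73 and 0.69, and without the 2 farthest in the second gene 0.60, 0.45 and 0.54. PER2 and NR1D2 had r = 0.66 with the diets centred, and as a description, since 5 samples of a diet are too few for a test, 0.07 in CON and 0.95 in MET. For PER3 and NR1D2 r was 0.61 and rho 0.50 (permutation p = 0.066, adjusted 0.33, and 0.144, adjusted 0.462), and r was 0.16 without the 2 samples farthest in either gene, so that it rests on those samples. For NR1D2 and DBP r was 0.54 and rho 0.54 (permutation p = 0.111, adjusted 0.356, and 0.114, adjusted 0.426), and r was 0.41 and 0.24 without the 2 farthest in the first and in the second gene. With MET 4 and MET 5 left out, r of these 5 pairs lay between 0.42 (NR1D2 and DBP) and 0.76 (PER2 and NR1D2).

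The other 3 pairs with a permutation p of r at most 0.05 before adjustment were outside this set. PER1 and CRY2 had r = 0.67 and rho = 0.81 (permutation p = 0.0352, adjusted 0.227, and 0.00737, adjusted 0.159), with r = 0.79 and 0.86 without the 2 samples farthest in the first and in the second gene and 0.56 with the diets centred. CRY2 and NR1D2 had r = 0.68 and rho = 0.60 (permutation p = 0.0307, adjusted 0.227, and 0.0734, adjusted 0.367), with r = 0.52 and 0.91 on leaving out the farthest samples in the same way and 0.37 with the diets centred. CLOCK and CRY1 had r = 0.67 and rho = 0.67 (permutation p = 0.034, adjusted 0.227, and 0.0391, adjusted 0.22), with r = 0.67 and 0.51 on leaving out the farthest samples and 0.79 with the diets centred. Without MET 4 and MET 5, r of these 3 pairs was 0.74, 0.79 and 0.64.

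BMAL1 ran against DBP with r = −0.61 and rho = −0.78 (permutation p = 0.0573, adjusted 0.322, and 0.0106, adjusted 0.159). Without the 2 samples farthest in BMAL1 r was −0.42, without the 2 farthest in DBP −0.56, and without MET 4 and MET 5 −0.53. BMAL1 was also negative with PER3 (r = −0.54, rho = −0.49, permutation p = 0.103 and 0.156, adjusted 0.356 and 0.465) and with NR1D2 (r = −0.54, rho = −0.68, permutation p = 0.108 and 0.0347, adjusted 0.356 and 0.22), and without the 2 samples farthest in BMAL1 r was −0.10 and −0.05, without those farthest in PER3 and in NR1D2 0.04 and −0.27, so that both rest on those samples. With CRY1 it was positive at the same size (r = 0.54, rho = 0.28, permutation p = 0.108 and 0.431, adjusted 0.356 and 0.746), with r = −0.18 and 0.21 without the 2 samples farthest in BMAL1 and in CRY1. With the other 5 clock genes r of BMAL1 ran from −0.38 (PER2) to 0.32 (CLOCK), and it was −0.12 with PER1, −0.08 with CRY2 and 0.01 with NR1D1 (adjusted permutation p from 0.683 to 0.986). The paralogs NR1D1 and NR1D2 had r = 0.04 and rho = 0.02 (permutation p = 0.919 and 0.973, adjusted 0.962 and 0.973), and r = 0.13 and 0.15 without the 2 samples farthest in NR1D1 and in NR1D2.

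Between the 10 clock genes and the 27 further ones, 1 of 270 pairs passed an adjusted p of 0.10 by r and 0 by rho. It was DBP with TEF, its close paralog and a D-box factor too, with r = 0.92 (permutation p = 0.00036, adjusted 0.0972) and rho = 0.90 (permutation p = 0.00068, adjusted 0.184). Without the 2 samples farthest in DBP r was 0.83, and centred within each diet 0.92, and it was 0.95 without MET 4 and MET 5. TEF itself measured 46.6, 39.1, 21.8, 31.0 and 27.2 CPM in CON 1/4, 2, 3, 5 and 6, and 26.0, 22.1, 21.4, 31.6 and 33.3 CPM in MET 1/3, 2, 4, 5 and 6. As for DBP, CON 1/4 was the highest sample and MET 4 the lowest.

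**Figure D4:**
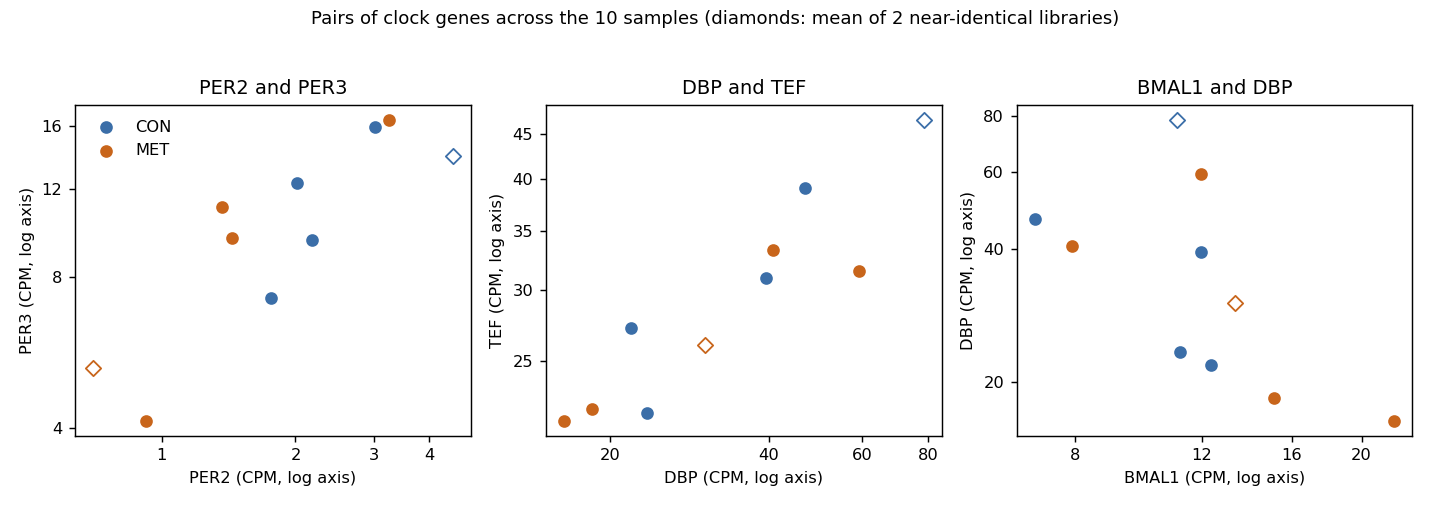
Levels of 3 pairs of clock genes in the 10 samples, CON in blue and MET in orange, on log axes in CPM, with diamonds for means of near-identical libraries. PER2 rises with PER3 (r = 0.85) and DBP with TEF (r = 0.92), while BMAL1 and DBP run opposite (r = −0.61), with MET 4 lowest in PER3, TEF and DBP and highest in BMAL1.

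Outside the clock lists, the 5 genes of the 13242 fitted whose pattern over the 10 samples was most like that of a clock gene were listed for BMAL1, NR1D2 and DBP, as a description without a test. For BMAL1 they were DCTD, IFRD1, GPN2, CYTIP and PFKFB4, with r from 0.915 to 0.930. For NR1D2 they were ROBO2, ALDH3A2, PTPN21, MYC and PICALM, with r from 0.904 to 0.942, and with the diets centred r was between 0.584 and 0.863. For DBP they were ITGB5, NTAN1, MBL2, SLC43A3 and F11, with r from 0.912 to 0.946, and MBL2 and F11 encode proteins that hepatocytes secrete. These are the highest values of a search over so many genes with 10 samples, and nothing is read from their size.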

How the data were processed

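Reads were mapped by the authors with STAR 2.5.3a to UMD 3.1.1, and they deposited raw read counts per gene for each library, made with featureCounts of Subread 1.5.2 with strand used. Read quality was examined with FastQC 0.11.15. The counts carry no normalization. Features without an Entrez gene ID, which were mitochondrial tRNA and rRNA, held 0.0487 to 0.115% of the counted reads.

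Samples were grouped by the diet in their labels. Genes were kept with edgeR's filter (minimum count 10, minimum total 15) and compared with the quasi-likelihood test of edgeR 4.0.16 (R 4.3.3) on diet alone after TMM normalization, with Benjamini-Hochberg adjustment over all 13212 genes tested. Standard errors were derived from the F statistic. The same fit was run on 10 samples, with the reads of near-identical libraries summed. Log2 CPM with a prior count of 2 entered exact permutation tests over the 252 arrangements of 5 against 5 samples, and correlations were tested with 100000 permutations (SciPy 1.17.1), all two-sided. Over the 10 samples, the p-values measure the spread between samples. Over the 12 libraries, they count the near-identical libraries as separate animals, so they do not measure the spread between calves alone. DESeq2 1.42.0 and limma 3.58.1 served as alternatives, as did other normalizations, no filter, removal of the trend on gene length, replicate blocks and leaving out each library, or MET 4 and MET 5 together. The steps were tested on simulated counts.

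The clock genes and lists were chosen with earlier results of these data known. All 10 clock genes are described. Of the further clock genes, those with FDR at most 0.10 over the libraries or p at most 0.05 before adjustment in the 10 samples are named, together with the leading 2 of each role, and not all of them are reported here. Among the clock genes with reads, depth limits CIART, PER2, NPAS2 and BHLHE41 most. Gene names came from RefSeq, and intervals on counts cover counting error only, since reads carry no molecular identifiers. The other assays of the study were not analysed here.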

Additional observations from a re-analysis of the deposited data

Results flagged for a closer look

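In 2 of the 20 groups of 5 samples formed by the 10 clock genes and 2 diets, 1 sample lay farther from the others than Dixon's 95% critical ratio for 5 values allows. Chance flags about 1 in 20 groups. BMAL1 was at 7.04 CPM in CON 2, where the other CON samples lay between 11.1 and 12.3 CPM (gap over range 0.764). NR1D2 was at 30.2 CPM in MET 5, where the other MET samples lay between 21.8 and 23.4 CPM (gap over range 0.802).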

How the results depend on the processing

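Summing the near-identical libraries reduced the genes called in edgeR from 583 to 0 over all genes (2165 with p at most 0.05 before adjustment), from 1 to 0 among the clock genes and from 3 to 0 among the further ones, and removing the length trend as well also gave 0 for each. Over all genes, 107 were called with library size scaling alone (0 further clock genes), 238 without a filter, 245 with the length trend removed and 1314 with DESeq2 over the 12 libraries (3 clock genes, 5 further ones). With MET 4 and MET 5 both left out, 154 were called over the libraries (1 clock gene, 0 further ones) and 0 over the 8 samples left (0 and 0). The numbers of replicates did not pair the calves: deviations of same-numbered libraries correlated with r between −0.19 and 0.148, no CON library correlated best with the MET library of its own number, and with replicate numbers as a block 6 genes were called, 0 clock genes and 0 further ones. Leaving out each library gave 26 to 565 called genes over all, 0 to 2 clock genes and 0 to 3 further ones. The counts fell beyond 1.5-fold without CON 1 (26), CON 3 (284), CON 4 (35), CON 6 (376), MET 1 (206), MET 2 (349), MET 3 (332), MET 4 (295), MET 5 (340) or MET 6 (216). The cause was not tested.

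Signs turned for values near 0. CRY1 was at 0.012 and NR1D1 at 0.077 over the 10 samples, CRY1 at 0.0077 and NR1D1 at 0.096 with DESeq2 there, and CLOCK at 0.082, CRY1 at 0.059, NR1D1 at 0.11 and NCOR1 at 0.064 with the length trend removed there. Over the 12 libraries CLOCK was at 0.055 and NCOR1 at 0.11 with the length trend removed, and NCOR1 at 0.0031 with library size scaling alone. With MET 4 and MET 5 both left out CSNK1D was at −0.0021 over the libraries and at −0.010 over the samples, where CRY1 (−0.14) and NR1D1 (−0.23) turned from the values of the 10 samples. With libraries left out, CRY1 ran from −0.20 to 0.058, NR1D1 from −0.30 to 0.051 and CSNK1D from −0.020 to 0.059.

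Of 45 pairs of clock genes, 1 was called by r, 0 with library size scaling alone, the length trend removed or MET 4 and MET 5 both left out, 2 over the 12 libraries and 0 to 2 with samples left out (0 without CON 1/4, CON 3, CON 5, MET 1/3, MET 4 or MET 5, 2 without CON 2 or MET 6). Of 667 recomputed values of single genes, 597 kept their direction and side of the threshold, 41 lost the threshold, 9 gained it and 20 turned in sign. These leave out 5 genes to which DESeq2 over the 10 samples gave no adjusted p, PER2, HLF, NPAS2, BHLHE41 and CSNK1E. DESeq2 and the length correction over the 10 samples and the omission of MET 4 with MET 5 were chosen after the data had been seen.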

Other observations

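FKBP5 and ZBTB16, both induced by glucocorticoids, varied more between calves than any of the 10 clock genes, which was seen only after their values were known. Their coefficients of variation were 80.9% and 61.3%, against 19.6% for TSC22D3, the other glucocorticoid-responsive gene of the cue list. FOS, an immediate early gene, varied by 116%, and USP2, a further clock gene, by 68.2%. FKBP5 measured 130, 58.5, 236, 24.0 and 140 CPM in CON 1/4, 2, 3, 5 and 6, and 83.5, 27.9, 186, 10.4 and 45.1 CPM in MET 1/3, 2, 4, 5 and 6, a 22.7-fold range. ZBTB16 measured 122, 34.6, 131, 17.4 and 65.4 CPM in the CON samples and 80.5, 37.9, 121, 19.0 and 77.0 CPM in the MET samples, listed in the same order of samples. Within each diet, both genes were lowest in CON 5 and MET 5 and highest in CON 3 and MET 4. TSC22D3 differed, with its lowest CON value in CON 3 (76.9 CPM) and its highest MET value in MET 1/3 (87.5 CPM). Its lowest MET value was in MET 5 too (53.8 CPM). The log2 fold changes of FKBP5 and ZBTB16 between the diets over the 10 samples were −0.74 (exact permutation p = 0.31) and −0.15 (exact permutation p = 0.984).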
